A study of Homo sapiens with 4 samples.

Results

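The SLC25 genes encode the mitochondrial carriers, and the members described here are all genes of the deposited intron counts whose symbol is SLC25A followed by a number. This rule, which uses no measured value, found 46 genes of 15902 listed, with 274 of the 142206 introns that could be used. RNA of the cytoplasmic fraction was measured in SUM159 cells, an established line from a human triple-negative breast cancer. The cells had been treated for 12 h with H3B-8800, a small molecule that binds the SF3B complex of the spliceosome and inhibits splicing, or with DMSO, its solvent. Each group had 2 libraries, made by polyA selection and described as biological duplicates, and all 4 libraries came from the same line and fraction, for which the labels name no genetic change. No effect of time or dose could be read, since 1 time point was measured and the sources used here give no dose.

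Mitochondrial carriers are small proteins of the inner mitochondrial membrane built from repeats, each a pair of membrane-spanning helices. They exchange nucleotides, phosphate, carboxylic acids, amino acids, cofactors and metals between the cytosol and the matrix, and so join cytosolic metabolism to respiration. They are encoded by nuclear genes, so every one of these messages must be spliced and exported before the protein is made and imported. A few members sit elsewhere, for example SLC25A17 in peroxisomes and SLC25A46 in the outer membrane.

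For each intron the counts give intronic reads, which lie in the intron, and spliced reads, which span it. The recovered library totals were 58000000 and 62000000 reads under H3B-8800, against 64000000 in each DMSO library. Over all genes, spliced reads numbered 11605061 and 12536423 under H3B-8800, against 14240258 and 14194422 in DMSO. Intronic reads numbered 1035695 and 1126434 under H3B-8800, against 629498 and 628580 in DMSO. Levels are given as CPM, spliced reads scaled to equal library size on the TMM scale that edgeR uses to even out library composition, summed over the introns of a gene. They are relative levels in a bulk sample: fewer cells with a given message and less of that message per cell cannot be told apart.

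Of the 46 genes, 35 had a mean of at least 1 CPM of spliced reads and were tested. Under H3B-8800, 8 of them were higher (22.9%) and 15 lower (42.9%) at an adjusted p under 0.05 in edgeR's quasi-likelihood test. Over all 9468 genes tested, 32.8% were higher and 32.7% lower. The median log2 change of the 35 genes was -0.21, against 0.01 for all genes. At least a 2-fold change was found upwards in 2 of the 35 genes and downwards in 8, while 6.42% of all genes rose and 10.7% fell by as much. The groups did not overlap for 10 genes with H3B-8800 above DMSO (28.6%, 41.6% of all genes) and for 19 with H3B-8800 below (54.3%, 40.9% of all genes). The share that rose was thus below that of all genes and the share that fell above it, a difference that was not itself tested. When counts were scaled by library totals instead, the median of all genes was -0.16 and that of the carriers -0.39, with 5 carriers higher and 19 lower, and 2230 of all genes higher and 3927 lower.

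The remaining 11 genes were too low to test. SLC25A6, an adenine nucleotide translocase, is listed at its copy in the pseudoautosomal region of chromosome Y and had 0 reads of either kind in every library, so it was not measured here. SLC25A31, SLC25A41, SLC25A47 and SLC25A48 had 0 spliced reads in every library. SLC25A18, a glutamate carrier, had 0 and 5 spliced reads under H3B-8800 against 15 and 19 in DMSO. SLC25A35, whose substrate is unassigned, had 3 and 1 spliced reads under H3B-8800 against 21 and 7 in DMSO. For both genes every H3B-8800 library was below every DMSO library, at counts that were not tested. SLC25A27, SLC25A29, SLC25A34 and SLC25A45 had at most 11 spliced reads in any library.

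**Figure D1:**
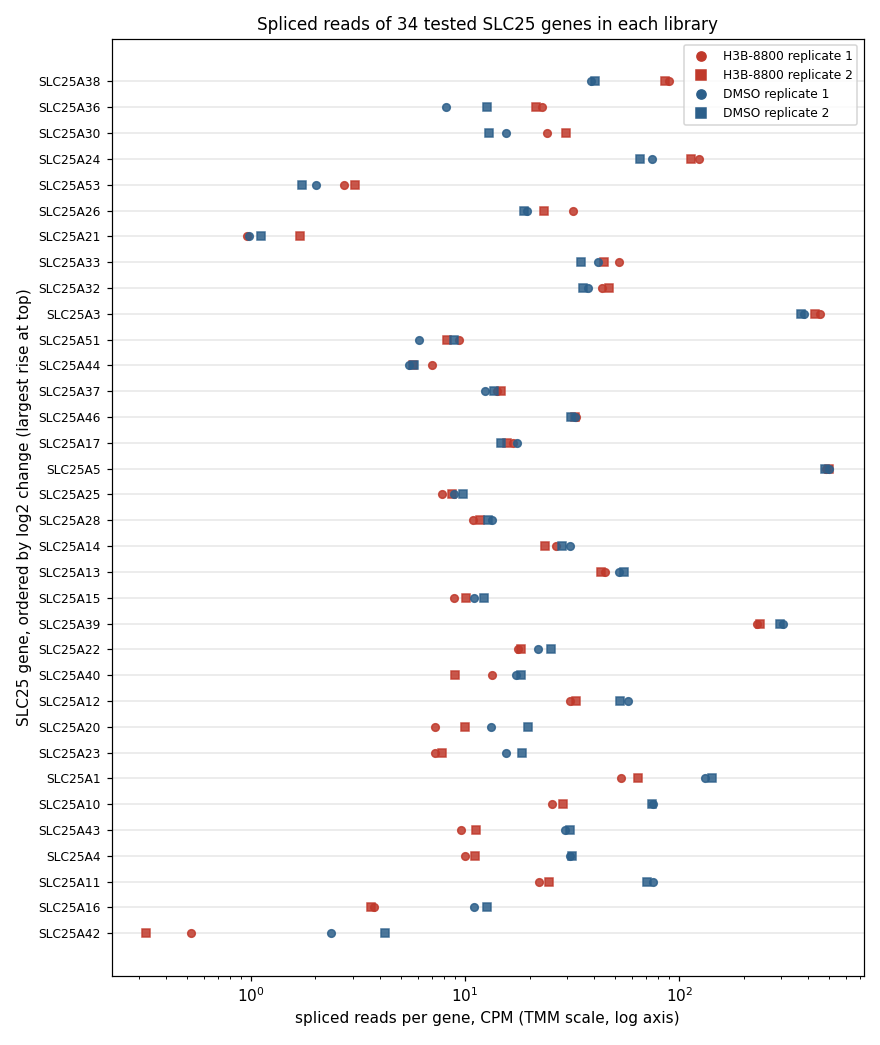
Spliced reads (CPM on the TMM scale, log axis) of 34 tested SLC25 genes in each of the 4 libraries, H3B-8800 in red and DMSO in blue, ordered by log2 change with the largest rise at the top. SLC25A5 and SLC25A3 lie at the right end in both groups, and SLC25A42 in the last row shows the widest gap, with 0.525 and 0.322 CPM under H3B-8800 against 2.37 and 4.25 CPM in DMSO.

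Carriers of adenine nucleotides and phosphate supply the matrix with ADP and phosphate for ATP synthesis and export the ATP. Of 9 members 6 were tested: 2 rose, 2 fell and 2 did not pass, with a median log2 change of -0.08. Beside the counts of this and the later role groups, 32.8% of all genes were higher and 32.7% lower. No role group was tested against all genes. SLC25A5, the adenine nucleotide translocase of dividing cells, had 486 and 500 CPM under H3B-8800 against 503 and 478 CPM in DMSO. The groups overlapped, and the log2 difference of 0.01 (SE 0.04, adjusted p = 0.902) did not pass. With library totals as the scale the difference was -0.17 and passed (adjusted p = 0.00401), so its direction depends on the scaling. Per intron, a rough scale for setting genes side by side, SLC25A5 was the highest of the carriers measured, with 164 CPM under H3B-8800 and 163 CPM in DMSO. SLC25A6 was not measured. Introns of the same gene differ on this scale: under H3B-8800 SLC25A5 had 90.3 and 103 CPM at intron 1 and 211 and 215 CPM at intron 2.

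SLC25A3, which imports the phosphate, followed with 111 CPM per intron under H3B-8800 against 93.9 CPM per intron in DMSO. Over the gene it had 456 and 431 CPM under H3B-8800 against 382 and 370 CPM in DMSO. Both H3B-8800 libraries were higher, by 0.24 on the log2 scale (SE 0.05, adjusted p = 0.000504). All 4 of its listed introns had more spliced reads under H3B-8800, without overlap. The rise did not pass with library totals (log2 0.06, adjusted p = 0.231) or in introns that hold no annotated exon (log2 0.20, adjusted p = 0.0854).

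SLC25A4, the translocase of heart and muscle, fell. It had 9.97 and 11.1 CPM under H3B-8800 against 30.8 and 31.5 CPM in DMSO. Both treated libraries were far below both DMSO libraries, with a log2 change of -1.56 (SE 0.12, adjusted p = 1.34e-07). The log2 ratio of SLC25A4 to SLC25A5 per intron was -5.61 and -5.49 under H3B-8800 and -4.03 and -3.93 in DMSO. The difference in this ratio, -1.57, was larger than the spread between replicates, and its two-sided exact permutation p of 0.333 is the smallest that 2 libraries against 2 can give.

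The ATP-magnesium/phosphate carriers, which are regulated by calcium and set the matrix content of adenine nucleotides, also split. SLC25A24 had 123 and 114 CPM under H3B-8800 against 74.5 and 65.9 CPM in DMSO, a rise of 0.75 (log2, SE 0.08, adjusted p = 1.85e-06). SLC25A23 had 7.26 and 7.81 CPM under H3B-8800 against 15.6 and 18.4 CPM in DMSO, a log2 change of -1.17 (SE 0.17, adjusted p = 3.42e-05). Neither gene's groups overlapped, and the log2 ratio of SLC25A23 to SLC25A24 per intron differed by -1.92 (-4.26 and -4.03 under H3B-8800, -2.43 and -2.01 in DMSO, exact permutation p = 0.333). SLC25A25, the other calcium-regulated member tested, had 7.78 and 8.70 CPM under H3B-8800 against 8.91 and 9.74 CPM in DMSO, which did not pass (log2 -0.18, adjusted p = 0.413).

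Carriers of carboxylates and the members related to uncoupling proteins had the lowest median of the role groups, -0.72, with 6 of 7 tested, 1 higher, 3 lower and 2 not called. SLC25A1 exports citrate for fatty acid and sterol synthesis. It had 53.8 and 64.4 CPM under H3B-8800 against 132 and 142 CPM in DMSO, a log2 change of -1.21 (SE 0.08, adjusted p = 5.05e-08). SLC25A11, the oxoglutarate/malate carrier of the malate-aspartate shuttle, had 22.2 and 24.7 CPM under H3B-8800 against 75.8 and 70.7 CPM in DMSO (log2 -1.64, SE 0.09, adjusted p = 6.88e-09). SLC25A10, which exchanges malate and succinate for phosphate, had 25.4 and 28.6 CPM under H3B-8800 against 75.8 and 74.4 CPM in DMSO (log2 -1.47, SE 0.09, adjusted p = 1.17e-08). All 3 fell with groups far apart, and every listed intron with at least 10 spliced reads on average was lower: 7 of 7 in SLC25A1, 8 of 8 in SLC25A10 and 5 of 5 in SLC25A11.

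SLC25A30, an uncoupling protein-like carrier, was the member of this group that rose. It had 24.2 and 29.6 CPM under H3B-8800 against 15.6 and 12.9 CPM in DMSO (log2 0.92, SE 0.14, adjusted p = 6.62e-05). All 6 of its listed introns were higher without overlap. SLC25A14 and SLC25A21, an uncoupling protein-like and an oxodicarboxylate carrier, had log2 differences of -0.24 (adjusted p = 0.0673) and 0.35 (adjusted p = 0.536) and did not pass. With library totals SLC25A14 was at -0.41 and passed as lower (adjusted p = 0.00325).

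Among carriers of amino acids and acylcarnitine, 7 of 9 members were tested, of which 1 rose, 4 fell and 2 did not pass (median log2 -0.29). The rise was that of SLC25A38, which carries glycine for the first step of haem synthesis. It had 89.3 and 85.9 CPM under H3B-8800 against 38.7 and 40.4 CPM in DMSO. Both treated libraries were over 2 times the DMSO level, with a log2 change of 1.15 (SE 0.08, adjusted p = 3.12e-08) that was the largest rise in the family. Each of its 6 introns was higher without overlap, intron 2 most, with 50 and 58 spliced reads under H3B-8800 against 16 and 11 in DMSO.

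SLC25A20 exchanges carnitine and acylcarnitine, by which fatty acids enter for oxidation. It had 7.26 and 9.99 CPM under H3B-8800 against 13.1 and 19.6 CPM in DMSO (log2 -0.92, SE 0.21, adjusted p = 0.0019), groups apart but spread within DMSO. Without the first H3B-8800 library the log2 change was -0.71 and did not pass (adjusted p = 0.099). SLC25A22, a glutamate carrier that is named after its values were seen, had 17.6 and 18.3 CPM under H3B-8800 against 21.9 and 25.3 CPM in DMSO (log2 -0.40, adjusted p = 0.0114). Its call was lost without either H3B-8800 library (log2 -0.37 without the first, -0.42 without the second), without the second DMSO library (log2 -0.30), in DESeq2 on all 4 libraries (log2 -0.40, adjusted p = 0.0528), and in introns that hold no annotated exon (log2 -0.30). The ornithine carrier SLC25A15 and the branched-chain amino acid carrier SLC25A44 did not pass, with log2 differences of -0.29 (adjusted p = 0.143) and 0.17 (adjusted p = 0.52). With library totals SLC25A15 was at -0.47 and passed as lower (adjusted p = 0.0268).

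SLC25A12 and SLC25A13 are the aspartate/glutamate carriers of the malate-aspartate shuttle. SLC25A12 had 30.9 and 33.0 CPM under H3B-8800 against 57.5 and 53.2 CPM in DMSO (log2 -0.79, SE 0.09, adjusted p = 3.4e-06). SLC25A13, also named after its values were seen, had 45.0 and 43.1 CPM under H3B-8800 against 52.5 and 55.2 CPM in DMSO (log2 -0.29, SE 0.08, adjusted p = 0.00622). Neither gene's groups overlapped, but the call for SLC25A13 was lost without the second H3B-8800 library (log2 -0.25) and without the second DMSO library (log2 -0.27). The log2 ratio of SLC25A12 to SLC25A13 per intron was -0.63 and -0.47 under H3B-8800 and 0.05 and -0.14 in DMSO (exact permutation p = 0.333).

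The sums of these paired carriers hide a change along the gene, looked at after the values were seen. In SLC25A13, introns 1 to 4 each had more spliced reads under H3B-8800 in both libraries, by 0.37 to 1.04 on the log2 scale. Intron 4 had 5.07 and 4.43 CPM under H3B-8800 against 2.99 and 3.13 CPM in DMSO. Introns 6, 7, 10, 11, 12, 14, 15, 16 and 17 each had fewer, and intron 14 had 5.16 and 4.99 CPM under H3B-8800 against 9.39 and 9.05 CPM in DMSO. In SLC25A12, introns 1 and 2 were higher (log2 1.27 and 1.43) and 14 others were lower. Intron 9, with a mean under 10 spliced reads, had 0.962 and 1.05 CPM under H3B-8800 against 0.765 and 0.278 CPM in DMSO, higher without overlap.

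The log2 ratio of spliced reads in the introns before the middle of the gene's list to those after it puts this on a scale free of depth. For SLC25A13 it was 0.50 and 0.62 under H3B-8800 and -0.49 and -0.50 in DMSO, a difference of 1.05. The upper 95th percentile of this difference over 5574 genes with at least 6 listed introns was 0.77, and the median was 0.05. For SLC25A12 this ratio overlapped between groups. Over the 19 carriers that could be read this way, 5 had a higher ratio under H3B-8800 without overlap and 3 a lower one (26.3% and 15.8%, against 29.8% and 15.7% of all such genes). Besides SLC25A13, the higher ones were SLC25A25, SLC25A16, SLC25A10 and SLC25A38, with differences of 1.11, 0.54, 0.36 and 0.21. The lower ones were SLC25A20, SLC25A33 and SLC25A14, with differences of -0.72, -0.51 and -0.26. The share of carriers with such a shift was thus near that of all genes, and SLC25A13 and SLC25A25 were the carriers above the percentile given. The value of SLC25A25 rests on low counts. Its introns after the middle had 6 and 15 spliced reads under H3B-8800 against 22 and 29 in DMSO.

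**Figure D2:**
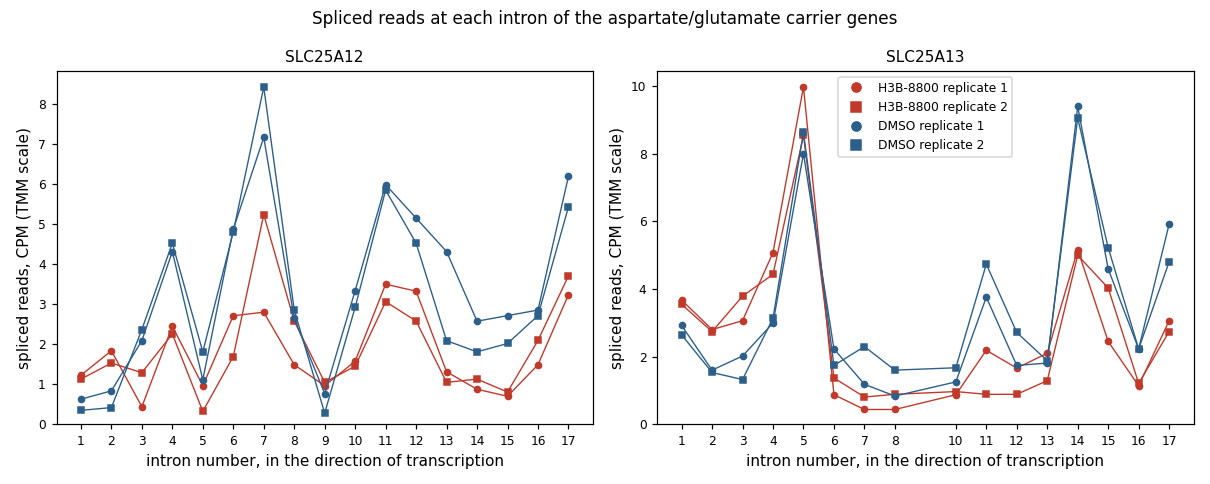
Spliced reads (CPM on the TMM scale) at each listed intron of SLC25A12 and SLC25A13, numbered in the direction of transcription, in the 4 libraries (H3B-8800 red, DMSO blue). In SLC25A13 the H3B-8800 libraries are above DMSO at introns 1 to 4 and below at most introns from 6 on, and in SLC25A12 they are above at introns 1, 2 and 9.

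Carriers of cofactors and pyrimidine nucleotides formed the group with the most rises, with 9 of 9 tested, 4 higher, 3 lower, 2 not called and a median log2 change of 0.23. SLC25A36 and SLC25A33 bring pyrimidine nucleotides to the mitochondrial genome. SLC25A36 had 22.8 and 21.3 CPM under H3B-8800 against 8.14 and 12.7 CPM in DMSO (log2 1.08, SE 0.18, adjusted p = 0.000136). SLC25A33 had 52.1 and 44.5 CPM under H3B-8800 against 41.7 and 34.8 CPM in DMSO (log2 0.34, SE 0.11, adjusted p = 0.0134). Both were higher in each treated library, SLC25A33 by a narrow margin: its log2 change was 0.22 without the first H3B-8800 library, 0.20 without the second DMSO library and 0.16 with library totals, and passed in none of these.

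SLC25A26 carries S-adenosylmethionine, the methyl donor. It had 32.0 and 23.3 CPM under H3B-8800 against 19.5 and 18.8 CPM in DMSO (log2 0.53, SE 0.14, adjusted p = 0.00511). Without the first H3B-8800 library the log2 change was 0.29 and did not pass. SLC25A32, a carrier of folate and flavin, had 43.6 and 46.8 CPM under H3B-8800 against 37.4 and 35.7 CPM in DMSO (log2 0.31, SE 0.09, adjusted p = 0.00659). Its call was lost without the second H3B-8800 library (log2 0.26), without the second DMSO library (log2 0.26) and with library totals (log2 0.13).

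Among the falls were those of SLC25A42 and SLC25A16. SLC25A42 carries coenzyme A and had 6 and 4 spliced reads under H3B-8800 against 34 and 61 in DMSO, the largest fall in the family, on low counts (log2 -2.95, SE 0.52, adjusted p = 0.000218). SLC25A16, linked to coenzyme A as well, had 3.76 and 3.63 CPM under H3B-8800 against 11.1 and 12.6 CPM in DMSO (log2 -1.68, SE 0.20, adjusted p = 9.03e-06). In both the groups were apart, while the peroxisomal SLC25A17 (log2 0.01, adjusted p = 0.948) and the NAD carrier SLC25A51 (log2 0.23, adjusted p = 0.364) had groups that overlapped.

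The 4 carriers of iron and glutathione were all tested, with 0 higher in edgeR, DESeq2 and at an unadjusted p under 0.05, 2 lower and 2 not called. SLC25A39 and SLC25A40 import glutathione. SLC25A39, named after its values were seen, had 230 and 239 CPM under H3B-8800 against 305 and 297 CPM in DMSO (log2 -0.36, SE 0.05, adjusted p = 2.52e-05). SLC25A40 had 13.4 and 8.94 CPM under H3B-8800 against 17.3 and 18.3 CPM in DMSO (log2 -0.68, SE 0.18, adjusted p = 0.00426). The groups were apart in both, with a wide spread in SLC25A40, whose log2 change was -0.41 without the second H3B-8800 library (adjusted p = 0.071). The mitoferrins SLC25A37 and SLC25A28, which import iron, did not pass (log2 0.14, adjusted p = 0.402, and log2 -0.21, adjusted p = 0.251). With library totals SLC25A28 was at -0.39 and passed as lower (adjusted p = 0.0447). The log2 ratio of SLC25A37 to SLC25A28 per intron was 0.39 and 0.32 under H3B-8800 and -0.12 and 0.11 in DMSO (exact permutation p = 0.333). That of SLC25A40 to SLC25A39 overlapped, with -4.24 and -4.88 under H3B-8800 and -4.28 and -4.16 in DMSO (exact permutation p = 0.667).

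Of the 8 members with another or no assigned substrate, 3 were tested and 1 fell. SLC25A43 had 9.53 and 11.2 CPM under H3B-8800 against 29.3 and 30.9 CPM in DMSO, far apart (log2 -1.53, SE 0.13, adjusted p = 2.49e-07). SLC25A46, which takes part in mitochondrial shape, had 33.1 and 32.7 CPM under H3B-8800 against 32.8 and 31.1 CPM in DMSO, which overlapped (log2 0.04, adjusted p = 0.706). SLC25A53 had 2.71 and 3.06 CPM under H3B-8800 against 2.02 and 1.74 CPM in DMSO. Its groups were apart, but it did not pass (log2 0.62, adjusted p = 0.135).

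**Figure D3:**
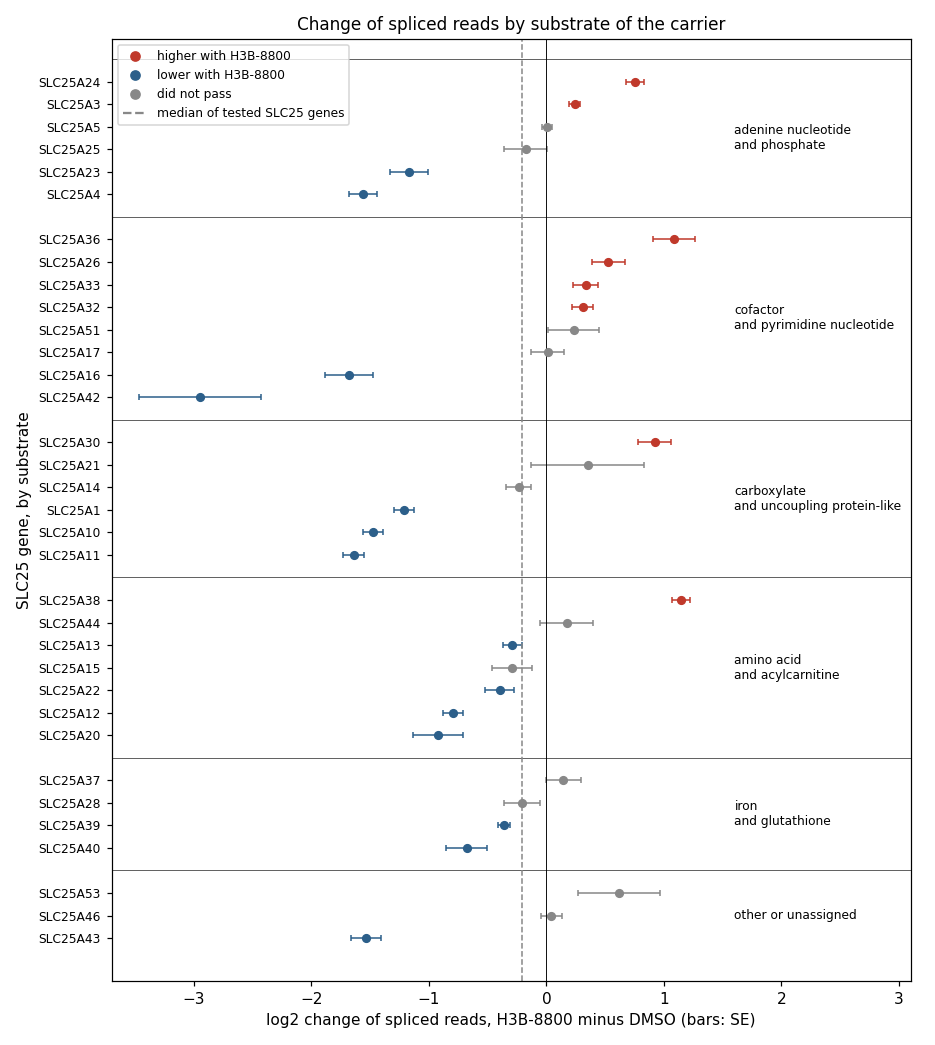
Log2 change of spliced reads, H3B-8800 minus DMSO, with its SE as bars, for 34 tested SLC25 genes by role of the carrier. Red points were higher and blue points lower with H3B-8800 at an adjusted p under 0.05, grey points did not pass, and the dashed line is the median of the 35 tested SLC25 genes at -0.21. The carboxylate group reaches from 0.92 in SLC25A30 to -1.64 in SLC25A11, and the cofactor group from 1.08 in SLC25A36 to -2.95 in SLC25A42.

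Spliced reads were also compared at single introns. Of 198 member introns with a mean of at least 10 spliced reads, 49 were higher under H3B-8800 without overlap (24.7%) and 96 lower (48.5%), against 33.1% and 38.2% of all such introns. All 8 listed introns of SLC25A24 and all 5 of SLC25A36 were higher, and all 3 of SLC25A4 and 4 of SLC25A43 were lower. In SLC25A5 the introns differed in direction: intron 1 had 90.3 and 103 CPM under H3B-8800 against 112 and 114 CPM in DMSO, and intron 2 had 211 and 215 CPM under H3B-8800 against 203 and 186 CPM in DMSO. Neither set of values overlapped, and intron 3 did not differ beyond its spread, with a log2 difference of 0.00.

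**Figure D4:**
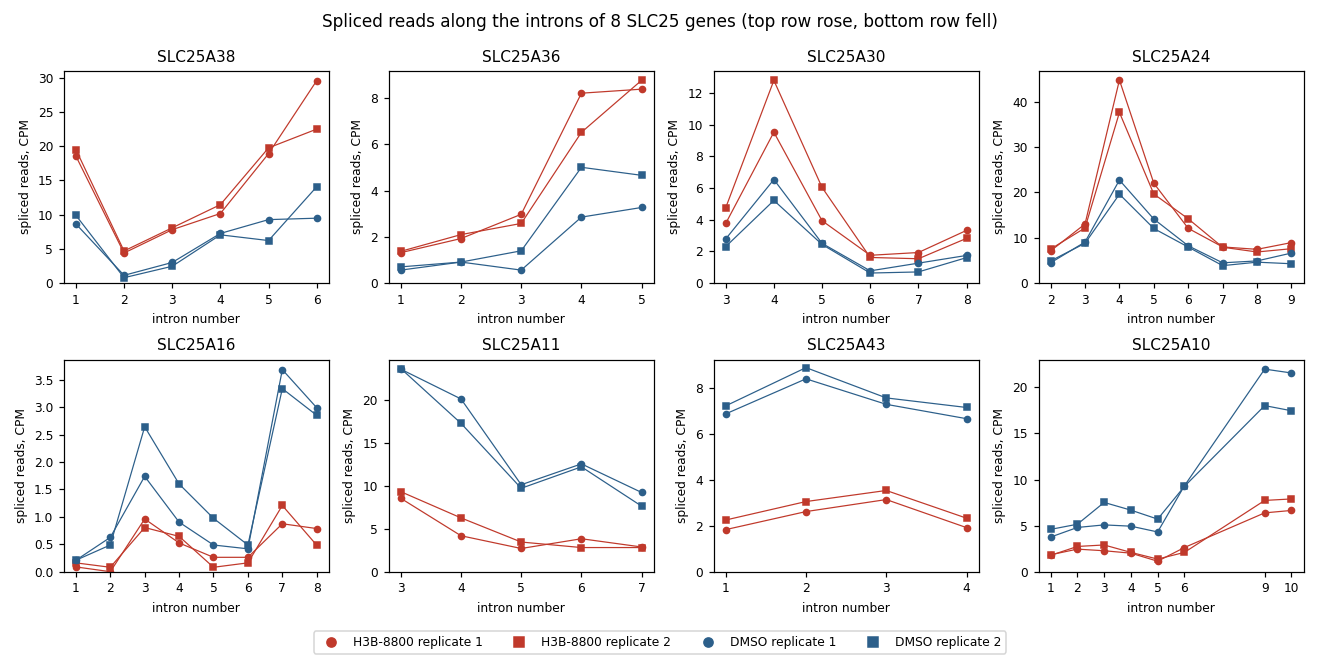
Spliced reads (CPM) at each listed intron of 8 SLC25 genes in the 4 libraries (H3B-8800 red, DMSO blue), the top row genes that rose and the bottom row genes that fell, with introns numbered in the direction of transcription. The H3B-8800 lines run above both DMSO lines at every intron of the 4 genes in the top row, and below them at every intron of SLC25A11, SLC25A43 and SLC25A10.

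Intronic reads rose as a share of the family's reads. They numbered 3437 and 3602 under H3B-8800 against 2901 and 2724 in DMSO, while spliced reads numbered 22488 and 24299 under H3B-8800 against 30748 and 30178 in DMSO. The intronic share was 13.1% ± 0.25 under H3B-8800 and 8.45% ± 0.24 in DMSO (SD, n = 2 each). SLC25A37 and SLC25A53 alone held 48.5% and 51.8% of the intronic reads under H3B-8800 and 62.1% and 56.9% in DMSO. Without these genes the share was 7.04% ± 0.45 under H3B-8800 and 3.62% ± 0.21 in DMSO (SD, n = 2 each). In the 162 introns with no annotated exon inside them it was 5.98% ± 0.29 under H3B-8800 and 1.86% ± 0.15 in DMSO (SD, n = 2 each), 3.22 times higher. All 3 shares were apart between groups, and 84 member introns had 0 intronic reads in every library. The intronic share rose over all genes as well. There, intronic reads numbered 1035695 and 1126434 under H3B-8800 against 629498 and 628580 in DMSO. Spliced reads numbered 11605061 and 12536423 under H3B-8800 against 14240258 and 14194422 in DMSO. The family's rise was not tested against that of all genes, and no share was computed over all introns without annotated exons.

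The change of intronic against spliced reads of the same intron could be tested in 41 member introns of 23 genes. It was higher under H3B-8800 in 16 introns of 11 genes (39%), against 56.5% of all 9937 introns tested. None was lower in edgeR (2.88% of all introns were), with 1 lower at an unadjusted p under 0.05, 0 in DESeq2 and 1 in limma-voom. The median log2 change was 0.83, against 1.62 for all introns, and 35 of the 41 (85.4%) were above 0, against 84.8% of all. Of the 16 introns, 12 lay in genes whose spliced reads fell, 3 in genes whose spliced reads rose and 1 in SLC25A37. A fall of spliced reads by itself raises this ratio, so the split is partly set by the measure. It was not compared with that of other introns. The 16 introns had a median length of 1890 bp and the 25 that did not pass one of 4334 bp, and 4 introns of each set were the last of their transcript. Annotated exons lay inside 9 of the 16 and 18 of the 25, and their part in the result was not tested.

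Intronic reads alone, scaled by library totals, were tested in 44 member introns of 26 genes. They were higher under H3B-8800 in 15 introns of 9 genes (34.1%, 48.2% of all introns) and lower in 1 (2.27%, 5.74% of all). The median log2 change was 0.67, against 1.13 for all introns, and 11 introns passed both tests. Without the first or without the second H3B-8800 library, 0 introns passed in either direction in edgeR, with 7 and 9 higher and 2 and 2 lower at an unadjusted p under 0.05. In these fits 0 of all 11278 and 0 of all 10837 introns passed as well. DESeq2 on all 4 libraries called 7 of the 44 higher and 1 lower, against 4238 and 349 of all 12013 introns. TMM computed on the intronic reads gave 3 of the 44 higher and 11 lower, against 2566 and 2322 of all introns.

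Introns with large changes are placed by their splice junctions in the mature transcript, with 15 bases of each exon read from GENCODE 29 transcripts, lower case for the exon before the intron and capitals for the exon after it. They are shown because the intronic reads counted between these exons changed against reads that join them. All junctions below lie in coding sequence.
SLC25A13 intron 6: gaatgtctagtagctGCTGCTGGAGGTACC
SLC25A43 intron 1: cgccgcctaccgcaaATTTGTTGTGCTGTT
SLC25A24 intron 3: gttgattcttcaaagCATTGATGTTGATGG

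SLC25A13 intron 6 (chr7:96191248-96193036 of GRCh38, minus strand, 1789 bp) had 67 and 40 intronic reads under H3B-8800 against 8 and 2 in DMSO. It had 10 and 17 spliced reads under H3B-8800 against 32 and 25 in DMSO. Intronic reads were most of the reads in each treated library and a minority in each DMSO library, and the log2 ratio changed by 4.48 (SE 0.78, adjusted p = 0.000488). This intron is also where the spliced reads of the gene turn from higher to lower, since introns 1 to 4 were higher, intron 5 overlapped and intron 6 was lower.

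SLC25A43 intron 1 (chrX:119399679-119406459, plus strand, 6781 bp) had 30 and 18 intronic reads under H3B-8800 against 10 and 8 in DMSO, and 21 and 28 spliced reads under H3B-8800 against 99 and 104 in DMSO (log2 ratio 3.43, SE 0.60, adjusted p = 0.00049). Intron 3 of the same gene also passed (log2 ratio 1.81, adjusted p = 0.00278), with 141 and 115 intronic reads under H3B-8800 against 72 and 128 in DMSO. In intron 3 the intronic reads overlapped between groups and did not pass alone (log2 0.45, adjusted p = 0.176). Its spliced reads were 36 and 44 under H3B-8800 against 105 and 109 in DMSO. Annotated exons of the gene and of others, RNU1-67P among them, lie in this intron on the same strand.

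SLC25A24 intron 3 (chr1:108161294-108181940, minus strand, 20647 bp) lies in a gene that rose. It had 139 and 118 intronic reads under H3B-8800 against 16 and 25 in DMSO, the largest counts among introns with no annotated exon that passed. Its spliced reads were 149 and 151 under H3B-8800 against 130 and 126 in DMSO. Both kinds of read were higher in counts, the intronic ones more (log2 ratio 2.42, SE 0.39, adjusted p = 0.000306). Intron 4 of the gene (30 and 28 intronic reads under H3B-8800 against 8 and 4 in DMSO, log2 ratio 1.57, adjusted p = 0.0135) lost its call without either H3B-8800 library (1.59 without the first, 1.55 without the second) and without the second DMSO library (1.26).

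SLC25A4 intron 3, the last of its gene, had 12 and 19 intronic reads under H3B-8800 against 15 and 12 in DMSO. Its spliced reads were 63 and 87 under H3B-8800 against 271 and 308 in DMSO (log2 ratio 2.13, SE 0.48, adjusted p = 0.00269). The intronic reads overlapped while the spliced reads fell. In SLC25A1 intron 4, 10 and 27 intronic reads under H3B-8800 stood against 8 and 7 in DMSO (log2 ratio 2.66, SE 0.55, adjusted p = 0.00151). Its spliced reads fell, with 49 and 79 under H3B-8800 against 154 and 190 in DMSO. Its intronic reads alone did not pass (log2 1.37, adjusted p = 0.0986). In SLC25A3 intron 5, which holds SNORA53, a small nucleolar RNA, 40 and 45 intronic reads under H3B-8800 stood against 17 and 21 in DMSO (log2 ratio 1.28, SE 0.33, adjusted p = 0.00586). This intron had 2094 and 1998 spliced reads under H3B-8800 against 2291 and 2157 in DMSO, so that even its raised intronic share was only 1.87% and 2.20% under H3B-8800, against 0.737% and 0.964% in DMSO.

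SLC25A39 had 4 introns that passed, among 10 listed, which makes it a gene in which neighbouring introns can be compared. Intron 10 (chr17:44320277-44320354, minus strand), only 78 bp long, had 25 and 35 intronic reads under H3B-8800 against 15 and 12 in DMSO (log2 ratio 1.99, SE 0.40, adjusted p = 0.00127). Intron 8 (326 bp) had 14 and 32 intronic reads under H3B-8800 against 8 and 8 in DMSO (log2 ratio 2.13, SE 0.51, adjusted p = 0.00366). Intron 7 (202 bp) had 64 and 62 intronic reads under H3B-8800 against 55 and 81 in DMSO and did not pass (log2 ratio 0.38, adjusted p = 0.366). Intron 7 thus held many intronic reads in all 4 libraries, while introns 8 and 10 held more in both treated ones. Without the second H3B-8800 library intron 8 had a log2 ratio of 1.55 and did not pass (adjusted p = 0.077).

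The longer introns 1 and 5 of SLC25A39 passed as well. Intron 1 had 89 and 89 intronic reads under H3B-8800 against 47 and 46 in DMSO (log2 ratio 1.42, SE 0.32, adjusted p = 0.00251). Intron 5 had 27 and 21 under H3B-8800 against 12 and 2 in DMSO (log2 ratio 2.39, SE 0.59, adjusted p = 0.0043), a value that was 4.13 without the first DMSO library. The sequences of introns 10, 8 and 7 were read from GENCODE 29 transcripts that keep them (GRCh38), and are shown to set neighbouring short introns with and without a change side by side. Intron 10 is printed whole, with its first 6 bases and its final AG in capitals, and for introns 8 and 7 the last 60 bases are printed with the AG in capitals. How many of the intronic reads come from such transcripts was not tested.
SLC25A39 intron 10: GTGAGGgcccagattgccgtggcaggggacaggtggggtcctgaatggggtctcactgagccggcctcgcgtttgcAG
SLC25A39 intron 8: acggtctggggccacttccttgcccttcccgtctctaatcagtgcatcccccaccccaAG
SLC25A39 intron 7: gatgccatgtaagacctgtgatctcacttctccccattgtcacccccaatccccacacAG

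Each intron begins with GT and ends with AG, as 98.6% of the 7710 introns did that could be read whole in this way. Pyrimidines made up 60% of the 20 bases before the AG in intron 10 and 70% in introns 8 and 7, where the median of those introns was 75% (quartiles 70% and 80%). The branch-site-like motifs CTAAC and CTGAC, searched on the transcript's strand only, were in the last 60 bases of none of the 3 introns, and in 3.85% and 13.9% of the 7710. These are 3 introns of a single gene, and whether their sequence goes with the change was not tested.

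SLC25A37 intron 3 (chr8:23568379-23571334, plus strand, 2956 bp) had 237 and 226 intronic reads under H3B-8800 against 86 and 90 in DMSO. Its spliced reads were 26 and 15 under H3B-8800 against 26 and 28 in DMSO (log2 ratio 1.80, SE 0.44, adjusted p = 0.00423). Intron 2 of the same gene had 723 and 907 intronic reads under H3B-8800 against 1119 and 908 in DMSO, did not pass (log2 ratio -0.37, adjusted p = 0.458) and is part of an annotated exon. Annotated exons of the gene also overlap introns 1 and 3. Intron 1 had 83 and 91 intronic reads under H3B-8800 against 47 and 58 in DMSO. These passed in the test of intronic reads alone (log2 0.82, adjusted p = 0.0165), while its ratio did not (log2 0.83, adjusted p = 0.0554). Introns 2 and 3 thus held most of the gene's intronic reads, and of these only intron 3 was higher under H3B-8800. Without the second H3B-8800 library its log2 ratio was 1.48 (adjusted p = 0.052). The intronic reads of SLC25A53, 623 and 643 under H3B-8800 against 550 and 493 in DMSO, were higher by 0.37 (log2, adjusted p = 0.0128) in the test of intronic reads alone. Its spliced reads were 31 and 38 under H3B-8800 against 29 and 25 in DMSO. The ratio of intronic to spliced reads did not pass (log2 -0.07, adjusted p = 0.865). An exon of ZCCHC18 lies in this intron on the opposite strand, and scaling on intronic reads turned the log2 change of its intronic reads to -0.67.

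SLC25A12 intron 4 and SLC25A23 intron 9 passed narrowly and are named after their values were seen, with log2 ratios of 1.35 (adjusted p = 0.04) and 2.56 (adjusted p = 0.0131). Their intronic reads alone did not pass (log2 0.26, adjusted p = 0.615, and log2 0.65, adjusted p = 0.319). SLC25A12 intron 4 did not pass without any 1 of the 4 libraries (1.11 to 1.62), and SLC25A23 intron 9 did not without either H3B-8800 library (2.64 without the first, 2.47 without the second) or the second DMSO library (2.06). In SLC25A38 intron 5 intronic reads were 22 and 18 under H3B-8800 against 1 and 5 in DMSO (log2 2.78, adjusted p = 0.0116), while its ratio to spliced reads, which rose as well, did not pass (log2 1.61, adjusted p = 0.0692). The single fall was in SLC25A35 intron 4, with 6 and 10 intronic reads under H3B-8800 against 48 and 60 in DMSO (log2 -2.65, adjusted p = 0.000534). An exon of RANGRF lies there on the opposite strand, and since no source used here says whether counting used strand, the reads of the overlapping genes cannot be told apart.

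**Figure D5:**
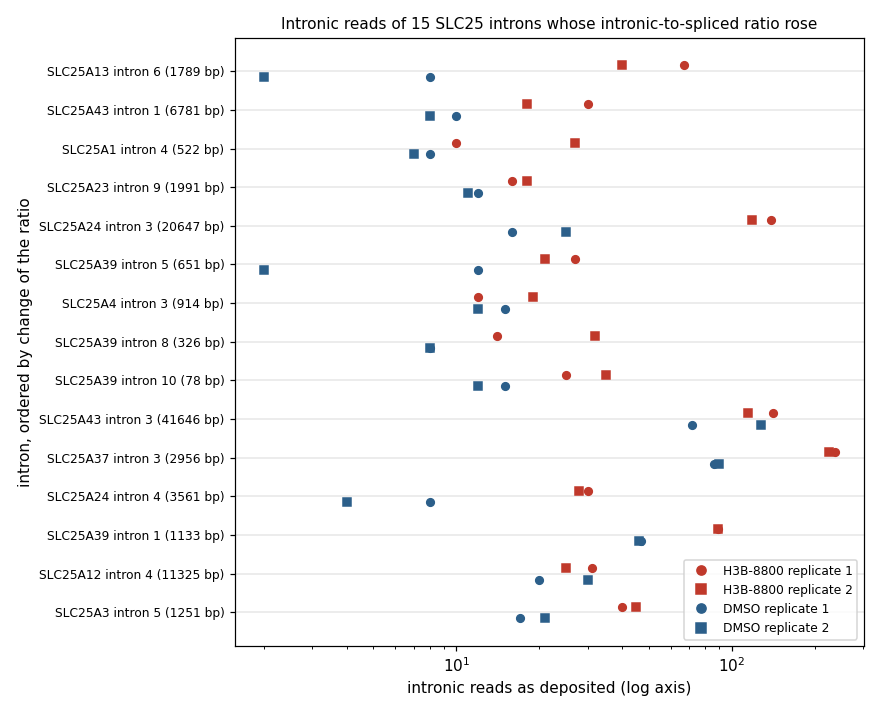
Intronic reads as deposited (log axis) of 15 SLC25 introns whose ratio of intronic to spliced reads rose, ordered by the change of that ratio, in the 4 libraries (H3B-8800 red, DMSO blue). SLC25A13 intron 6 in the top row has 67 and 40 reads under H3B-8800 against 8 and 2 in DMSO, while the reads of SLC25A4 intron 3 overlap.

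Summed over the introns of a gene, intronic against spliced reads could be tested in 29 carriers, of which 18 were higher (62.1%, 65.4% of all genes) and 0 lower in edgeR (2.35% of all genes), also at an unadjusted p under 0.05. Large changes were in SLC25A4 (log2 3.1, SE 0.36) and SLC25A1 (log2 2.68, SE 0.44). SLC25A36 and SLC25A30, whose spliced reads rose, had log2 differences of -0.56 (adjusted p = 0.108) and -0.38 (adjusted p = 0.466), while SLC25A24 rose in both measures (log2 1.5, SE 0.25). Of the other carriers whose spliced reads rose, SLC25A3 (log2 1.4, adjusted p = 0.000331), SLC25A33 (log2 1.37, adjusted p = 0.0178), SLC25A26 (log2 1.16, adjusted p = 0.0279) and SLC25A38 (log2 1.11, adjusted p = 0.0129) also had a raised ratio, and SLC25A32 did not pass (log2 0.57, adjusted p = 0.129).

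Genes that act beside the carriers are given for comparison. Over all 9468 genes tested, 32.8% were higher and 32.7% lower, and none of these short lists was tested against them. Of the members of the carrier family that have other names, 5 of 8 were listed and 2 tested, and both fell: MTCH1 (110 ± 2.45 CPM under H3B-8800 and 193 ± 6.31 CPM in DMSO, SD, n = 2 each, log2 -0.81) and MTCH2 (log2 -0.44), which sit in the outer membrane. UCP2, an uncoupling protein, had 0 and 0 spliced reads under H3B-8800 against 16 and 6 in DMSO and was not tested. Of the machinery that imports carriers, 15 of 22 entries were tested, with 3 higher and 6 lower. TOMM20, a receptor of the outer membrane, rose (log2 1.28, adjusted p = 2.27e-09), while the pore TOMM40 (log2 -0.63, adjusted p = 2.71e-07) and the chaperone HSPA8 (log2 -0.35, adjusted p = 1.5e-06) fell.

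Of other mitochondrial transport proteins, 22 of 27 entries were tested, with 6 higher, 12 lower and a median log2 change of -0.24. SFXN3, a sideroflexin, had 7.61 and 11 CPM under H3B-8800 against 46.5 and 47.2 CPM in DMSO (log2 -2.32, adjusted p = 1.24e-08). GHITM rose (log2 0.53, adjusted p = 1.2e-07), and MPC1, a subunit of the pyruvate carrier, fell (log2 -1.03, adjusted p = 8.58e-07). Of the enzymes that use or make what the carriers move, 24 of 27 were tested, with 9 higher and 9 lower (median log2 -0.09). ACLY, which cleaves the citrate that SLC25A1 exports, fell by 0.98 on the log2 scale (adjusted p = 1.73e-09). GOT1, the cytosolic aspartate aminotransferase of the shuttle served by SLC25A12 and SLC25A13, had a log2 change of -1.28 (adjusted p = 2.16e-08), and SHMT2, a mitochondrial enzyme that converts serine to glycine, one of -0.83 (adjusted p = 2.16e-08).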

How the data were processed

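The deposited files hold 2 read counts and an RPKM per intron, with no header, a reading taken from the values. The submitters' processing notes name HISAT2 2.0.4 and the builds hg38 and mm10. The counting tool and its strand setting are not named in the sources used here. The deposited RPKM was used only to recover library totals. The excess of the second deposited count over the first was taken as spliced reads, and 1 read can add to several introns. Even numbers made up 70.9% to 72.3% of the intronic counts above 0, so counts are not taken as independent molecules. The files give the flanking exon bases, so 1 base was taken off each end; 99.9% of introns then were in GENCODE 29 (GRCh38). Introns were numbered from the matching transcript.

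Tests used edgeR 4.0.16 (R 4.3.3) over all genes or introns, with Benjamini-Hochberg adjustment and a threshold of 0.05: spliced reads per gene (TMM, mean of at least 1 CPM, 9468 genes); intronic reads (library totals, mean of at least 10 reads, 12013 introns); and the interaction of kind of read with treatment (at least 10 reads of each kind, 9937 introns). SEs were derived from the F statistic. The tests were run on simulated counts whose spread was set beforehand. There, 2-fold changes were recovered in 95.5% of genes, 18.8% of introns for intronic reads and 5.63% of introns for the ratio. For 4-fold changes these shares were 100%, 86.4% and 73.4%. In these simulations the intron tests thus missed most 2-fold changes. Far fewer features were changed there than were called in the data, so recovery in the real tests can differ. DESeq2 1.42.0 and limma 3.58.1 were alternatives, as were other scalings, filters and left-out libraries. With 2 libraries a group the p-values measure only the spread between these samples. Members and lists were chosen with earlier results of these data known. Named were up to 12 rises and 12 falls among genes and introns that passed, the adenine nucleotide and phosphate carriers, and 3 genes of each list by adjusted p. Members that did not pass are named for completeness. Same-numbered replicates did not deviate together (correlation 0.049). Values of 1 member that passed are not reported here; the counts over the family include it.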

Additional observations from a re-analysis of the deposited data

How the results depend on the processing

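With library totals in place of TMM, 5 carriers were higher instead of 8. Carriers without a call changed sign as follows. Leaving out 1 library gave log2 differences of -0.12 to 0.13 for SLC25A17 (-0.04 without H3B-8800 replicate 1), -0.043 to 0.036 for SLC25A5 (-0.0092 without H3B-8800 replicate 2), -0.11 to 0.70 for SLC25A21, -0.018 to 0.51 for SLC25A51 and -0.0083 to 0.072 for SLC25A46. Library totals gave -0.17 for SLC25A17, -0.17 for SLC25A5, -0.13 for SLC25A46, -0.032 for SLC25A37 and -0.0056 for SLC25A44. SLC25A5 had -0.000794 in DESeq2, -0.000826 with RLE size factors, and -0.064 without its most-read intron, as SLC25A44 had -0.22. Counting only introns that hold no annotated exon gave -0.13 for SLC25A17 and -0.0074 for SLC25A5. The cause was not tested.

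Intronic reads depended most on the settings. Higher introns numbered 0 to 18 and lower ones 0 to 3 when 1 library was left out, with 0 without either H3B-8800 library, where the smallest adjusted p was 0.094 and 0.093. DESeq2 called 7 higher, and a minimum of 20 reads left 8 higher among 22 tested. TMM on intronic reads, which centres a shared change on 0, gave 3 higher and 11 lower, and turned SLC25A37 intron 1 to -0.22, SLC25A39 intron 1 to -0.012 and SLC25A53 intron 1 to -0.67. For the ratio, higher introns numbered 11 to 20 and lower ones 0 to 1 when 1 library was left out. A minimum of 5 reads gave 25 higher among 59 tested, a minimum of 20 reads 10 among 19, and limma-voom 1 lower.

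With a replicate block, 8 carriers were higher and 15 lower, 15 introns had a higher and 0 a lower ratio, and 11 introns had more and 1 fewer intronic reads. The shared numbers have no stated meaning and the libraries did not deviate together. Depth limits the intron tests: 84 of 274 member introns had 0 intronic reads in every library and 41 could be tested for the ratio.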
